A study of Mus musculus with 17 samples.

Results

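The CXCR3 chemokine axis was followed as 4 listed genes: the ligand genes Cxcl9, Cxcl10 and Cxcl11 and the gene of their receptor, Cxcr3. The genes were taken by name and by no rule on measured values, but with earlier results of these data known. All 4 were among the 48397 genes of the bulk count tables. The single-cell libraries were read over the 28208 genes that their tables have in common, which hold 3 of the 4. Cxcl11 was not analysed here in single cells.

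Bulk RNA-seq counts came from 12 libraries whose labels name T cells from the spleen of wild-type mice, all stimulated with antibodies to CD3 and CD28. There were 3 libraries in each of 4 groups: stimulation alone (Control), stimulation with a control Fc protein (Ctrl_Fc), with PD-1 Fc, which binds the PD-1 ligands on a cell (PD1_Fc), and with PD-L1 Fc (PDL1_Fc). The labels give 2.5 ug/ml for the control Fc and PD-1 Fc and an activation readout at 72 h. Single-cell RNA-seq came from 5 libraries of CD45+ leukocytes sorted from orthotopic pancreatic tumours of mice at 3 weeks, 1 library for each genotype: CD4Cre (a Cre control), PDL1 floxed/WT with CD4Cre (flWT_CD4Cre), PDL1 floxed/floxed without Cre (flfl), wild type (WT), and PDL1 floxed/floxed with CD4Cre (flfl_CD4Cre), in which the gene of PD-L1, Cd274, is deleted where the Cd4 promoter has driven Cre.

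Some features of the design limit what the groups can show. With 1 library per genotype, no test between genotypes was possible, and intervals on single-cell values cover counting error only. The 3 libraries with Cre also differ from the other 2 in the format of their deposited tables, so that Cre and the kind of library cannot be told apart. The Cd4 promoter acts in developing T cells and so reaches both CD4 and CD8 T cells, while the macrophages described below are not its main target. No label says that the bulk libraries came from separate animals or cultures, so the p-values measure the spread between these libraries, which may be technical. In 4 of the 12 bulk libraries the title and the treatment field disagree about PD-1 Fc and PD-L1 Fc, and the titles were followed. File names of the single-cell libraries flWT_CD4Cre, with Cre, and WT, without it, disagree with their genotype labels. The genotype labels were followed, and each comparison by Cre rests on them.

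CXCR3 is a receptor coupled to inhibitory G proteins, carried mainly by activated and memory T cells and natural killer cells, which it draws toward inflamed tissue and tumours. Its ligands are chemokines made on exposure to interferon gamma. CXCL9 depends most closely on interferon gamma, CXCL10 is also induced by type I interferons and by NF-kB, and CXCL11 carries a frameshift in the C57BL/6 reference genome. In T cells the transcription factor T-bet, encoded by Tbx21, drives Cxcr3.

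The 3 ligand genes lie side by side on the minus strand of chromosome 5 (GRCm38, GENCODE M21): Cxcl9 (ENSMUSG00000029417.9) at chr5:92321347-92328079, Cxcl10 (ENSMUSG00000034855.13) at chr5:92346638-92348889 and Cxcl11 (ENSMUSG00000060183.6) at chr5:92359544-92365485. GENCODE annotates Cxcl11 as a polymorphic pseudogene. Cxcr3 (ENSMUSG00000050232.6) lies at chrX:101731535-101734269, also on the minus strand. The 250 bases before the start sites of Cxcl9 and Cxcl10 are shown because these neighbouring ligand genes, both found in macrophages and monocytes, differed in type 1 dendritic cells and neutrophils below. They are printed 5′ to 3′ on the minus strand from RefSeq (GRCm38.p6), at chr5:92328080-92328329 for Cxcl9 and chr5:92348890-92349139 for Cxcl10, with motif matches in capitals.
Cxcl9: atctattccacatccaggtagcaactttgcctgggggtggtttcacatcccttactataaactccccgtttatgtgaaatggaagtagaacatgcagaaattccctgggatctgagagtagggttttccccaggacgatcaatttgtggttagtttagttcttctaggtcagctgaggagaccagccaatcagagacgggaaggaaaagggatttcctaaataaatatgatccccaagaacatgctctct
Cxcl10: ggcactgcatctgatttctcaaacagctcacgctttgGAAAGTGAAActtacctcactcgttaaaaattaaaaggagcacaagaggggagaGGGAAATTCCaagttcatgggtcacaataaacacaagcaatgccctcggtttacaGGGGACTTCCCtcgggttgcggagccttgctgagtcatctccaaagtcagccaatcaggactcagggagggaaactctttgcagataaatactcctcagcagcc

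Each window was searched on both strands for the interferon-stimulated response element (GAAA, any 2 bases, GAAA), the interferon gamma activated site written TTCNNNGAA, and the NF-kB site. In Cxcl10, the response element GAAAGTGAAA ends 204 bases before the start site. The first NF-kB match, GGGAAATTCC, ends 150 bases before it. A pair of NF-kB matches that overlap in all but 1 base stands in the last capital stretch, and one of them reads on both strands. Of 32851 mouse promoter windows of this length, 2.98% held the response element, 7.02% the activated site and 7.25% an NF-kB match. The Cxcl9 window held none of the 3 motifs in this spelling, which says only that these letters are not in this window.

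Some libraries stand apart or go against their labels. Counts assigned to genes ran from 14880455 to 18557390 a library in Control and PDL1_Fc and from 3473884 to 5006301 in Ctrl_Fc and PD1_Fc. The summed level of 8 T cell markers was 857 to 928 counts-per-million units (CPM) in Ctrl_Fc and PD1_Fc, with 1 marker at 0. It was 9.50 to 12.9 CPM in Control and PDL1_Fc, with 2 to 4 at 0. A sum of 10 macrophage markers was 3907 to 4541 CPM in Control and PDL1_Fc and 8.49 to 28.3 CPM in the other 6. Libraries labelled Control and PDL1_Fc are therefore called by those labels, with no claim that they hold T cells. Among single cells, 2184 barcodes occurred in more than 1 library, 1405 of them in all 3 libraries with Cre. Copies with under 1/5 of the largest copy's unique molecular identifiers (UMIs) were left out: 1195 in CD4Cre, 1497 in flWT_CD4Cre and 821 in flfl_CD4Cre. That left 2862 to 4415 cells a library, with a median of 6154 to 13668 UMIs. Of the cells kept in CD4Cre, 52.2% were B cells. Cell classes were read from the markers of each cell, and cells with markers of more than 1 class ("mixed") were left out.

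The ligand genes were higher in Control and PDL1_Fc, the bulk groups with more macrophage transcripts. Cxcl10 had 17083, 19239 and 16685 counts in the 3 Control libraries and 16109, 15861 and 16032 in PDL1_Fc, against 6, 5 and 27 in Ctrl_Fc and 38, 5 and 5 in PD1_Fc. The Control and PDL1_Fc libraries lie far above the other 6, in a set where 91.8% of all genes were called between Ctrl_Fc and Control (below). In the Fc set, the libraries with the most Cxcl10, the third Ctrl_Fc at 5.79 CPM and the first PD1_Fc at 7.81 CPM, also had the highest sums of the 10 macrophage markers, 28.3 and 24.7 CPM against 8.49 to 12.4 CPM in the other 4. Cxcl9 did not follow these sums within the Fc set. It was lowest in the third Ctrl_Fc (1.07 CPM, 5 counts) and highest in the second PD1_Fc (3.67 CPM, 16 counts), where the marker sum was 10.3 CPM. The part of other cells in these counts was not tested, and in bulk RNA fewer cells of a type and less RNA per cell cannot be told apart.

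Cxcl11 was present in the same libraries. Its counts were 730, 700 and 541 in Control, 502, 518 and 629 in PDL1_Fc, 0, 0 and 2 in Ctrl_Fc and 0 in each PD1_Fc library. In PD1_Fc, 0 counts allow a level of up to 0.211 CPM over the group. Cxcl9 had 99, 104 and 94 counts in Control, 79, 75 and 86 in PDL1_Fc, 5, 6 and 5 in Ctrl_Fc and 10, 16 and 7 in PD1_Fc. Both ligand genes were thus higher in every Control and PDL1_Fc library than in any library of the other groups. The share of all genes that separate in this way was not counted, and 91.8% of genes were called between Ctrl_Fc and Control. For Cxcl9 the distance was smaller: 5.52 ± 0.156 CPM in Control and 1.35 ± 0.248 CPM in Ctrl_Fc (SD, n = 3 each).

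Per kilobase of exon, the Control level was 437 CPM for Cxcl10, 9.62 CPM for Cxcl11 and 1.83 CPM for Cxcl9. Cxcl10 was the ligand gene with the highest level per kilobase in Control and PDL1_Fc. In Ctrl_Fc the levels per kilobase were 1.30 CPM for Cxcl10, 0.448 CPM for Cxcl9 and 0.0377 CPM for Cxcl11.

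The receptor gene ran the other way. Cxcr3 had 146, 177 and 155 counts in Ctrl_Fc and 150, 156 and 179 in PD1_Fc, against 10, 12 and 14 in Control and 4, 4 and 6 in PDL1_Fc. The 6 Fc-set libraries lie above every Control and PDL1_Fc library although they hold fewer counts in all. For Cxcr3 too, the share of all genes that separate in this way was not counted. The mean was 40.3 ± 6.34 CPM in Ctrl_Fc and 34.1 ± 2.85 CPM in PD1_Fc, against 0.674 ± 0.150 CPM in Control and 0.301 ± 0.0634 CPM in PDL1_Fc (SD, n = 3 each).

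**Figure D1:**
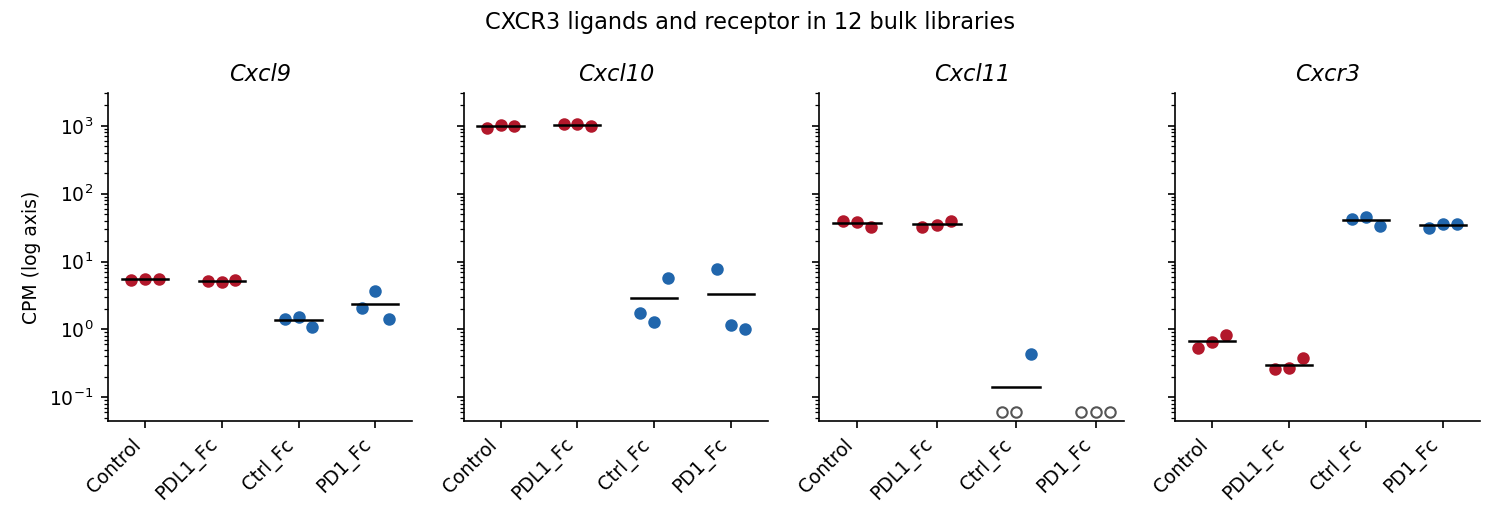
Level of Cxcl9, Cxcl10, Cxcl11 and Cxcr3 in the 12 bulk libraries, in CPM on a log axis; each dot is a library, the line is the group mean and open symbols at the bottom edge stand for 0 counts. The ligand genes are high in Control and PDL1_Fc (Cxcl10 means of 985 and 1039 CPM) and Cxcr3 is high in Ctrl_Fc and PD1_Fc (40.3 and 34.1 CPM).

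The effect of PD-1 Fc is read against the control Fc. No member passed the test (edgeR quasi-likelihood test with Benjamini-Hochberg adjustment over 14653 genes), where 0.0478% of genes did. The log2 change was 0.86 (SE 0.46, adjusted p = 0.931 by edgeR) for Cxcl9, 0.16 (SE 0.87, adjusted p = 1 by edgeR) for Cxcl10 and -0.17 (SE 0.16, adjusted p = 0.932 by edgeR) for Cxcr3. The Cxcl10 value is decided by single libraries and was -1.53 without the first PD1_Fc library. Cxcl11 was at or under the floor of 3 counts in both groups and has no fold change. Called genes numbered 7 by edgeR and 18 by DESeq2, and 771 had an unadjusted p under 0.05.

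PDL1_Fc was compared with Control. The call rate was 0% of all genes and 0 of the 4 members, with 0 genes called by DESeq2 as well and 528 genes at an unadjusted p under 0.05 in edgeR. Changes in the ligand genes were small against their errors: log2 -0.10 (SE 0.21) for Cxcl9, 0.07 (SE 0.25) for Cxcl10 and -0.04 (SE 0.12) for Cxcl11. Cxcr3 was the exception in size, at log2 -1.12 (SE 0.44, adjusted p = 1 and unadjusted p = 0.0124 by edgeR), on 4 to 14 counts a library.

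Ctrl_Fc against Control bridges the sets, and in it the control Fc and the set of libraries cannot be told apart. All 4 members passed the test, as did 91.8% of all genes (44.4% higher and 47.4% lower in Ctrl_Fc), so the calls say nothing particular about them. The ligand genes were lower in Ctrl_Fc, with a log2 change of -9.02 for Cxcl10 (SE 0.44, adjusted p = 2.99e-08 by edgeR), -8.38 for Cxcl11 (SE 0.34, adjusted p = 9.41e-34) and -2.78 for Cxcl9 (SE 0.34, adjusted p = 2.36e-11). Cxcr3 was higher, at 5.13 (SE 0.22, adjusted p = 1.22e-32 by edgeR). The Cxcl11 value rests on 2 counts in Ctrl_Fc. As a ratio of CPM, Control was 220.1 times Ctrl_Fc (95% counting interval 60.8 to 1819).

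Genes that work with the axis are to be read against the 91.8% of all genes called between these sets. Of 19 tested genes that lead to ligand induction, 17 were lower and 2 higher in Ctrl_Fc (median log2 -5.47, all genes -0.13). The lower ones were led by Tnf, a cytokine that acts through NF-kB (0.335 against 156 CPM). The higher 2 were Jak1, a kinase of the interferon receptors (567 against 98.4 CPM), and Nfkb1. Of 20 interferon gamma targets, 17 were lower and 0 higher (median log2 -4.54), led by the GTPase gene Igtp, by Cd274 (1.04 against 413 CPM) and by Nos2, the inducible nitric oxide synthase (7.93 against 3029 CPM).

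Among 17 tested genes of receptor control and signalling, 9 were higher in Ctrl_Fc and 7 lower (median log2 0.44). The higher ones were led by transcription factors of effector T cells: Eomes (58.3 CPM against 0 counts), Tbx21 (82.6 against 0.0199 CPM) and Stat4 (94.7 against 8.66 CPM). In the list of ligand handling, 1 of 6 was higher and 4 lower (median log2 -6.29). The higher one was Dpp4, a protease that trims the ends of these chemokines (254 against 1.26 CPM). Pf4, itself a CXC chemokine gene, was among the lower (0.854 against 261 CPM). Other chemokine genes were lower in 19 of 19 (median log2 -9.03), and other chemokine receptors were higher in 8 and lower in 4 of 12 (median log2 1.33). Ccr7, a receptor of naive T cells and of migratory dendritic cells (1868 CPM in those of the tumours), was at 417 against 104 CPM. None of the genes of these 6 lists passed the edgeR test in PD1_Fc against Ctrl_Fc or in PDL1_Fc against Control.

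In the tumours, macrophages were the main class with Cxcl9. Their Cxcl9 level, as CPM of the UMIs of the class, was 618 in CD4Cre, 538 in flWT_CD4Cre, 707 in flfl_CD4Cre, 136 in flfl and 106 in WT. The 3 libraries with Cre lie above the 2 without. Macrophages held 57.8% to 78.9% of all Cxcl9 UMIs in a library, and between 21.5% and 37.2% of macrophages had at least 1.

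Monocytes had the second-highest mean, though not in each library. In CD4Cre, type 2 dendritic cells (344 CPM) and conventional CD4 T cells (305 CPM, 82 UMIs in 36 cells) lay above them. In WT most other classes did, among them both conventional dendritic classes and neutrophils (19.2 CPM). The monocytes' Cxcl9 level was 198 CPM in CD4Cre, 604 in flWT_CD4Cre, 463 in flfl_CD4Cre, 130 in flfl and 2.33 in WT. In flfl, 1 monocyte held 88.1% of the UMIs, so that value rests on 1 cell. Type 1 conventional dendritic cells, which cross-present antigen to CD8 T cells, had 96.0 CPM in 148 cells of flfl and 56.5 CPM in 82 cells of WT, and in these libraries 29.7% and 28.0% of them had Cxcl9, against 22.6% and 21.5% of macrophages. The dendritic cells were deeper, and after thinning to 2000 UMIs the shares were 8.78% and 12.2% against 11.6% and 9.92%. The high Cxcl9 values of CD8 T cells are values of single cells. In CD4Cre 1 CD8 T cell held 93.6% of the UMIs behind 142 CPM, and in flfl_CD4Cre 1 held all of those behind 210 CPM.

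Myeloid classes and B cells were ordered by their mean Cxcl9 over libraries with at least 20 cells. Macrophages (421 ± 281 CPM, SD, n = 5) came first, then monocytes (279 ± 247), type 2 conventional dendritic cells (162 ± 132) and type 1 (102 ± 48.1, n = 3). Migratory dendritic cells (49.2 ± 43.03), neutrophils (20.6 ± 13.3) and B cells (5.67 ± 3.18) followed. Not placed in this order are conventional CD4 T cells (105 ± 174, n = 3), CD8 T cells (75.4 ± 95.3, n = 5), epithelial or tumour cells (47.6 ± 55.1, n = 4) and plasma cells (3.27 ± 1.03, n = 3). The values of each class overlap those of the next in this order, while those of macrophages and neutrophils do not overlap. B cells, which should make little Cxcl9, had a UMI in 1.47% to 5.65% of cells, the level against which low shares are to be read.

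Cxcl10 had another order. Among classes with at least 20 cells in a library, neutrophils had the highest mean, 456 ± 711 CPM, which rests on flWT_CD4Cre. Their level was 151 CPM in CD4Cre, 1708 in flWT_CD4Cre, 341 in flfl_CD4Cre, 60.1 in flfl and 19.2 in WT. Monocytes had 238, 708, 367, 192 and 31.5 CPM in the same order of libraries. Macrophages had 264, 350, 299, 89.1 and 30.7 CPM, and held 38.9% to 65.4% of all Cxcl10 UMIs in a library. In all 3 classes WT was lowest and flWT_CD4Cre highest. The neutrophil share with a Cxcl10 UMI was 33.8% of 142 cells in flWT_CD4Cre and 4.05% to 12.3% elsewhere, and in CD4Cre 1 neutrophil held 90.5% of the UMIs. Fibroblasts were too few to be ranked: 18 in flfl_CD4Cre held 414 Cxcl10 UMIs (3.38% of that library's), and 13 in flWT_CD4Cre held 6.

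Dendritic cells differed in Cxcl10. Type 1 cells had 1.32 CPM in flWT_CD4Cre, 11.4 in flfl and 3.28 in WT. Type 2 cells had 237 CPM in CD4Cre, 121 in flWT_CD4Cre, 42.2 in flfl_CD4Cre, 33.1 in flfl and 4.28 in WT, above the type 1 cells in each of the 3 libraries with at least 20 type 1 cells. At 2000 UMIs, 1.35% of type 1 cells in flfl and 1.22% in WT had Cxcl10, against 8.11% and 2.70% of macrophages.

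**Figure D2:**
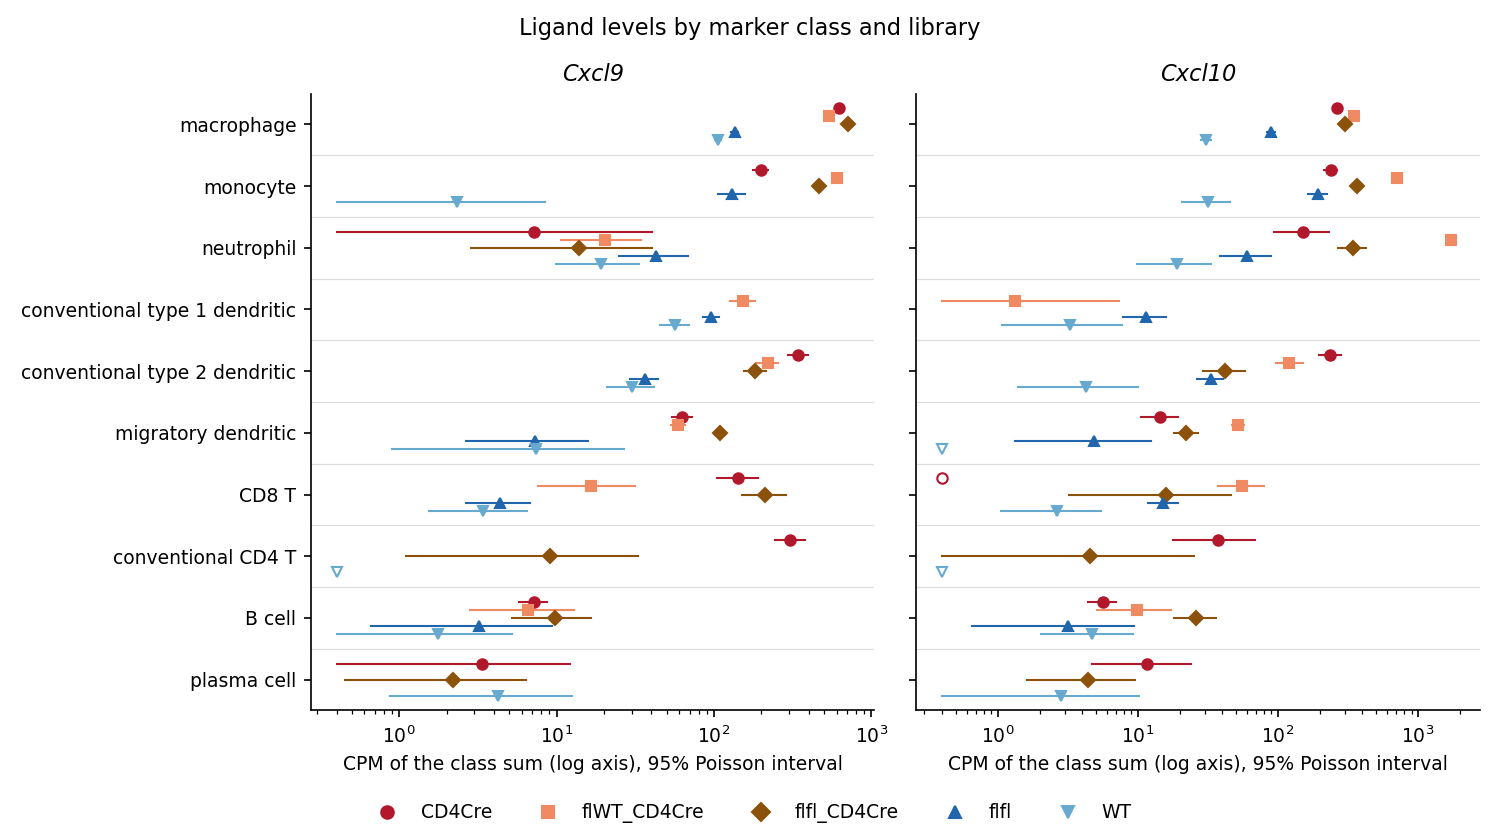
Cxcl9 and Cxcl10 in each cell class and library, in CPM of the class on a log axis; points are libraries, bars are 95% Poisson intervals (counting error only) and open symbols at the edge stand for 0 UMIs. Macrophages have 106 to 707 CPM of Cxcl9, above monocytes in 4 of 5 libraries, and the neutrophils of flWT_CD4Cre have the highest Cxcl10 plotted (1708 CPM).

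Raw counts were summed per library and class and tested with edgeR, with the library as a covariate. Macrophages exceeded neutrophils in Cxcl9 by log2 3.60 (SE 0.78, adjusted p = 0.000407 by edgeR) but not in Cxcl10 (log2 -0.63, SE 0.57, adjusted p = 0.432), so 1 of 2 ligand genes passed where 33.8% of genes did. The Cxcl10 sign turned to log2 0.35 without flWT_CD4Cre. Neutrophils had less Cxcl9 than monocytes (log2 -2.70, SE 0.79, adjusted p = 0.0112 by edgeR, with 22.4% of genes called). That call was lost without flWT_CD4Cre (log2 -1.98, adjusted p = 0.175 by edgeR) and without flfl_CD4Cre (log2 -2.26, adjusted p = 0.0667). Between macrophages and monocytes neither ligand gene passed the test (Cxcl9 log2 0.91, SE 0.59, adjusted p = 0.393 by edgeR, and Cxcl10 log2 -0.25, SE 0.54, adjusted p = 0.863), where 9.75% of genes did.

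Type 1 dendritic cells had less Cxcl10 than macrophages (log2 -4.07, SE 0.90, adjusted p = 0.000768 by edgeR), while their Cxcl9 did not pass (log2 -0.85, SE 0.71, adjusted p = 0.464). Of all genes, 21.2% were called. Under a stricter marker rule the Cxcl10 difference was log2 -2.86 (adjusted p = 0.104 by edgeR). Against type 2 cells the Cxcl10 value of type 1 cells was log2 -2.62 (SE 0.91, adjusted p = 0.0611 by edgeR), with 10.2% of genes called. Migratory dendritic cells, which carry antigen to lymph nodes, had less Cxcl10 than type 2 cells (log2 -2.09, SE 0.66, adjusted p = 0.0128 by edgeR). Their Cxcl9 value was log2 -1.60 (adjusted p = 0.0551 by edgeR), and 35.6% of genes were called. Without CD4Cre the Cxcl10 call was lost (log2 -1.24, adjusted p = 0.17 by edgeR).

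The ligands occurred together in part of the macrophages. With every cell thinned to 5000 UMIs, neither was found in 360 of 564 macrophages in CD4Cre and 1090 of 1330 in WT. Cxcl10 was found in 31.0% of macrophages with Cxcl9 and 11.3% without in CD4Cre. The shares were 38.4% and 15.2% in flWT_CD4Cre, 32.4% and 10.6% in flfl_CD4Cre, 21.6% and 12.3% in flfl, and 13.5% and 4.13% in WT. The share was higher beside Cxcl9 in all 5 libraries, yet most macrophages with Cxcl9 had no UMI of Cxcl10.

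Ligand-positive macrophages more often carried some, but not all, transcripts of interferon signalling. At 5000 UMIs, Cxcl9 was found in 50.5% of macrophages with Gbp2, an interferon-induced GTPase gene, and in 17.1% without it in CD4Cre, and in 32.7% against 10.4% in WT. Irf1, an interferon-induced transcription factor, showed the same order, from 34.7% against 23.9% in CD4Cre to 20.2% against 13.2% in WT. Both genes went with a higher share of Cxcl9 and of Cxcl10 in 5 of 5 libraries. Cells above the median for the antigen-presentation genes H2-Ab1, H2-Aa, H2-Eb1 and Cd74 also had Cxcl9 more often in 5 of 5 libraries. The shares were 41.1% against 14.9% in CD4Cre and 19.4% against 9.62% in WT. The Cxcl10 share was higher above that median in 3 of 5.

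Lipid-handling genes went the other way for Cxcl9, while the Cxcl10 share was higher beside them in 2 of 5 libraries. Cxcl9 was found in 20.5% of macrophages with at least 3 of Spp1, Gpnmb, Trem2 and Fabp5 and in 33.8% of the rest in CD4Cre, and in 8.49% and 16.4% in WT, lower in 5 of 5 libraries. For Cxcl10, Cd274 was the member of the panel nearest to the study's question. Cxcl10 was found in 28.2% of flfl_CD4Cre macrophages with Cd274 and 9.90% without, and in 13.7% against 4.42% in WT, higher in 5 of 5 libraries, whereas Cxcl9 was higher beside Cd274 in 4 of 5. Ifngr1, a chain of the interferon gamma receptor, went with a lower Cxcl10 share in 5 of 5 (4.61% against 6.82% in WT). Beside it the Cxcl9 share was higher in 1 of 5. With 5 libraries the smallest two-sided p of an exact paired test is 0.0625, so no test was made.

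**Figure D3:**
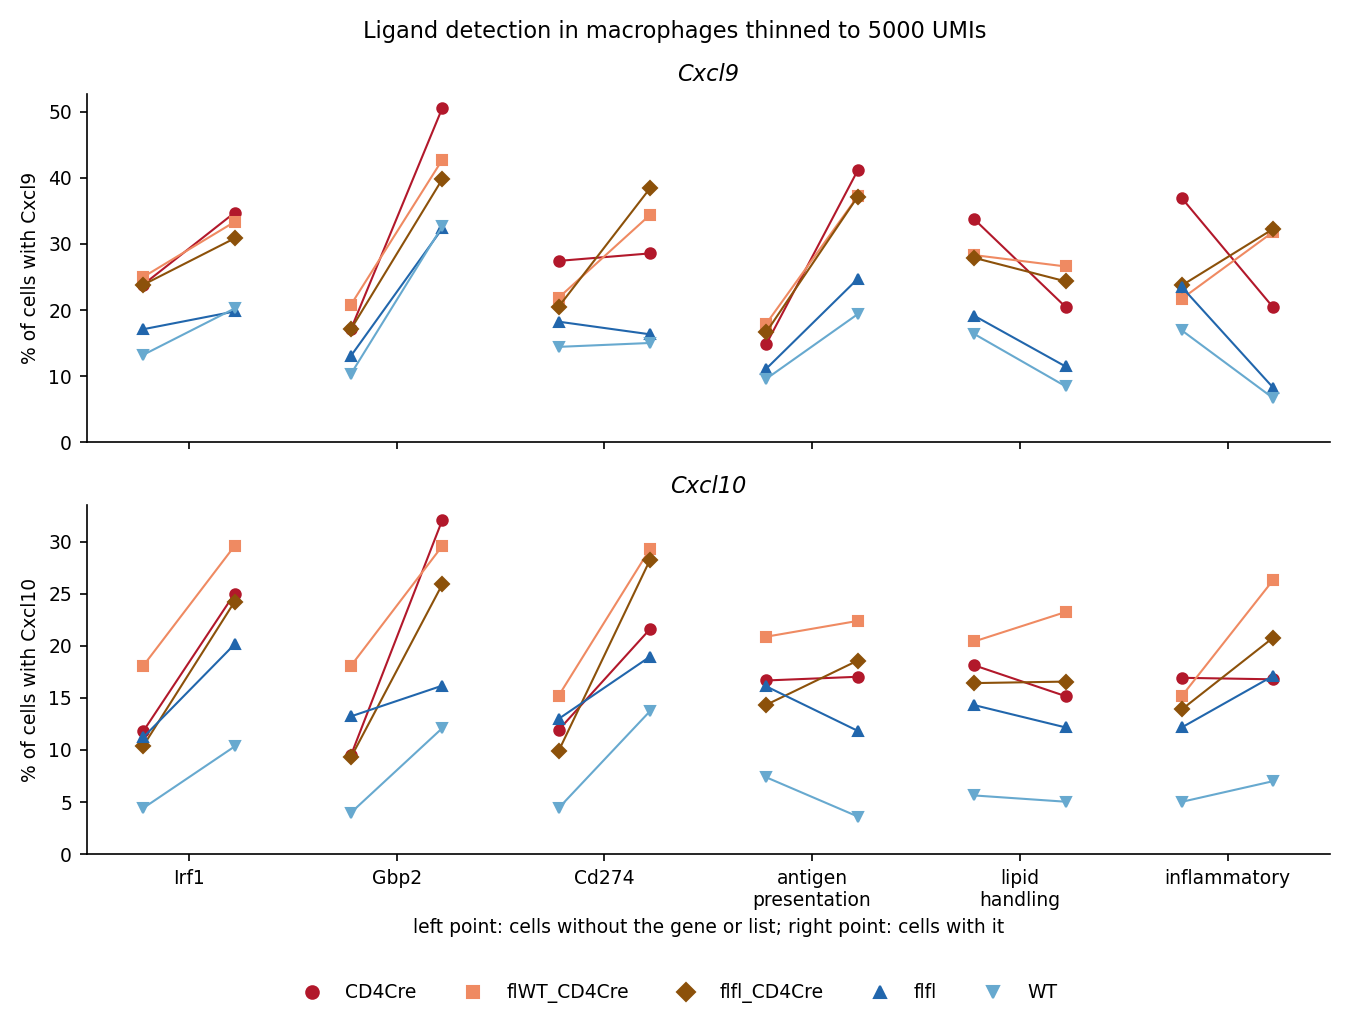
Share of macrophages with Cxcl9 or Cxcl10 (percent, cells thinned to 5000 UMIs) among cells without (left point) and with (right point) each gene or gene list (for the antigen-presentation list, below and above the library's median); each line is a library. Lines rise for Gbp2 and Irf1 in all 5 libraries and fall for the lipid-handling list with Cxcl9, for example from 33.8% to 20.5% in CD4Cre.

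By genotype, flfl_CD4Cre macrophages had slightly more ligand RNA than those of the Cre control. The log2 ratio of flfl_CD4Cre to CD4Cre was 0.19 for Cxcl9 (95% counting interval 0.15 to 0.24; 707 against 618 CPM) and 0.18 for Cxcl10 (0.11 to 0.25; 299 against 264 CPM). These intervals hold no spread between mice, and over other choices of cells the ratio ran from 0.0194 to 0.65 for Cxcl9 and from -0.0270 to 0.80 for Cxcl10. The difference is small beside the distance between the libraries with and without Cre.

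That distance was tested on macrophage sums, 3 libraries against 2, a contrast chosen after the values were seen. Cxcl9 averaged 621 ± 84.7 CPM with Cre (SD, n = 3) and 121 CPM without (n = 2), log2 1.84 (SE 0.18, adjusted p = 0.00109 by edgeR). Cxcl10 averaged 304 ± 43.4 and 59.9 CPM, log2 1.84 (SE 0.45, adjusted p = 0.0196 by edgeR). Cxcr3 averaged 0.809 ± 0.756 and 6.56 CPM, log2 -3.64 (SE 0.85, adjusted p = 0.0159 by edgeR). All 3 genes passed, where 49.7% of 12865 genes did (25.6% higher and 24.1% lower with Cre). For Cxcl10 the call was lost without flWT_CD4Cre (log2 1.66, adjusted p = 0.082 by edgeR) or flfl_CD4Cre (log2 1.87, adjusted p = 0.0576), and for Cxcr3 without flfl, WT or flfl_CD4Cre in turn (adjusted p from 0.0669 to 0.0762).

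The lists are to be read against the 49.7% of all genes called in this contrast. Among interferon gamma targets, 12 of 19 were higher with Cre and 4 lower (median log2 0.91, all genes 0.09), led by Nos2 (123 against 2.95 CPM), the GTPase gene Iigp1 (236 against 28.6 CPM) and Gbp5 (81.0 against 14.6 CPM). Of 20 genes of ligand induction, 7 were higher and 7 lower (median log2 0.35), with Stat2 (105 against 18.3 CPM) and Irf7 among the higher and Tnf (28.2 against 89.1 CPM), Nfkbia and Ifnar2 among the lower. Other chemokine genes were higher in 4 and lower in 10 of 21 (median log2 -0.82), among the latter Ccl17 (16.7 against 195 CPM) and Cxcl2 (210 against 711 CPM). Receptor control and signalling had 5 higher and 2 lower of 15, ligand handling 2 higher (Sdc1 and Sdc4, syndecans that hold chemokines) and 0 lower of 6, and other receptors 1 higher and 4 lower of 11.

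Further values moved with the Cre libraries, and their part in the ligand levels was not tested. The median macrophage had 31 to 75 UMIs of the 4 antigen-presentation genes per 5000 with Cre and 366 and 426.5 without. Ifng, the inducer of the ligands, was at 118, 277 and 342 CPM in CD8 T cells of CD4Cre, flWT_CD4Cre and flfl_CD4Cre, and at 150 and 121 CPM in flfl and WT. Over all cells of the library it was lower with Cre (2.01, 3.59 and 1.31 CPM) than without (22.9 and 9.99 CPM). T cells numbered 64 to 113 a library with Cre and 382 and 564 without.

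Cxcr3 was sought first in T and natural killer cells. In CD8 T cells its level was 57.4 CPM in CD4Cre (95% Poisson interval 34.6 to 89.7), 42.5 in flWT_CD4Cre (27.0 to 63.8), 89.4 in flfl_CD4Cre (52.1 to 143), 26.4 in flfl (21.9 to 31.5) and 27.9 in WT (21.9 to 35.0). The 3 Cre libraries hold 21 to 40 CD8 T cells each and the other 2 hold 461 and 307, so the lower levels are the more precise. At least 1 UMI was found in 13.03% to 47.6% of CD8 T cells. After thinning to 2000 UMIs, the share was 18.2% to 23.8% with Cre and 5.42% and 5.86% without.

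Conventional CD4 T cells had a Cxcr3 level above that of CD8 T cells in each library, by little in CD4Cre: 59.5 CPM in CD4Cre, 106 in flWT_CD4Cre, 154 in flfl_CD4Cre, 180 in flfl and 142 in WT, on 15 to 36 cells a library. Regulatory T cells had 45.1, 134, 24.1 and 152 CPM in CD4Cre, flWT_CD4Cre, flfl_CD4Cre and flfl, on 10 to 16 cells. Plasmacytoid dendritic cells, known for type I interferon, had 147 CPM in 9 cells of flfl (95% Poisson interval 70.6 to 271) and 188 CPM in 8 cells of WT (90.2 to 346), and 47.2 CPM in 6 cells of flfl_CD4Cre, too few to enter the fits. The only natural killer group of 20 cells, in flfl, had 70.8 CPM (36.6 to 124), with Cxcr3 in 40% of its cells. In the edgeR fit CD8 and conventional CD4 T cells did not pass (log2 -0.88, SE 0.77, adjusted p = 0.737 by edgeR), where 0.983% of genes did. Nor did natural killer against CD8 T cells (log2 -0.22, SE 1.21, adjusted p = 1 by edgeR), where 0.262% of genes did. In simulated data the first of these comparisons recovered 23.9% of 2-fold and 69.7% of 4-fold changes. The CD4 sums also held Ciita, a gene of antigen-presenting cells, at 93.5 CPM against 7.84 CPM in CD8 T cells, and the part of such cells in the Cxcr3 level was not tested.

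For all T cells, Cxcr3 was at 99.0 CPM in flfl_CD4Cre and 60.8 CPM in CD4Cre, a log2 ratio of 0.70 (95% counting interval 0.15 to 1.26; 0.17 to 1.04 over other choices of cells and depth), with 68.0 CPM in flWT_CD4Cre, 35.1 in flfl and 40.3 in WT. Cd274, the floxed gene, had 48.6 CPM in T cells of flfl_CD4Cre, 52.2 in CD4Cre, 35.2 in flWT_CD4Cre, 9.87 in flfl and 11.6 in WT. These are tags from the 3′ end of the transcript, and the sources used here do not give the floxed exons, so the Cd274 level does not check the deletion.

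Type 1 conventional dendritic cells also carried Cxcr3. Their level was 16.3 CPM in CD4Cre, 13.2 in flWT_CD4Cre, 22.3 in flfl_CD4Cre, 50.7 in flfl and 82.1 in WT. The values with Cre rest on few UMIs: 3 in CD4Cre (17 cells, all in 1 of them), 10 in flWT_CD4Cre (27 cells) and 10 in flfl_CD4Cre (19 cells). In flfl and WT, 52.0% of 148 and 53.7% of 82 cells had a UMI, above the CD8 T cell shares of 15.6% and 13.03%, and in these libraries the level was also above that of CD8 T cells, whereas with Cre it was below. Type 2 cells had 0 to 1.71 CPM and migratory dendritic cells 0 to 0.314 CPM, both near 0 in every library.

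The dendritic difference passed the test. Type 1 cells exceeded macrophages in Cxcr3 by log2 4.15 (SE 0.65, adjusted p = 6.16e-06 by edgeR) and type 2 cells by log2 5.87 (SE 1.03, adjusted p = 0.000118 by edgeR). Of all genes, 21.2% were called against macrophages and 10.2% against type 2 cells. Each Cxcr3 difference was past the threshold when any 1 library was left out. Against CD8 T cells, a contrast added after the values were seen, the difference was log2 0.27 (SE 0.75, adjusted p = 0.845 by edgeR, 27.7% of genes called), and its sign changed with the marker rule.

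T cell RNA was found at similar shares in type 1 cells with and without Cxcr3. A T cell receptor complex gene (Cd3e, Cd3d, Cd3g or Trac) was found in 41.6% of them and 46.5% of the Cxcr3-negative in flfl, and in 36.4% and 34.2% in WT. Xcr1 was found in 95.5% to 100% of the Cxcr3-positive cells and 71.4% to 100% of the Cxcr3-negative. It is 1 of the markers that defined this class, so its presence is no separate check of the class. The Cxcr3-positive cells were also deeper, with medians of 20706 against 18529 UMIs in flfl and 19466 against 15605 in WT. Some of these cells had a ligand gene too. Cxcl9 was found in 29.9% of Cxcr3-positive and 29.6% of Cxcr3-negative type 1 cells in flfl, and in 31.8% and 23.7% in WT.

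**Figure D4:**
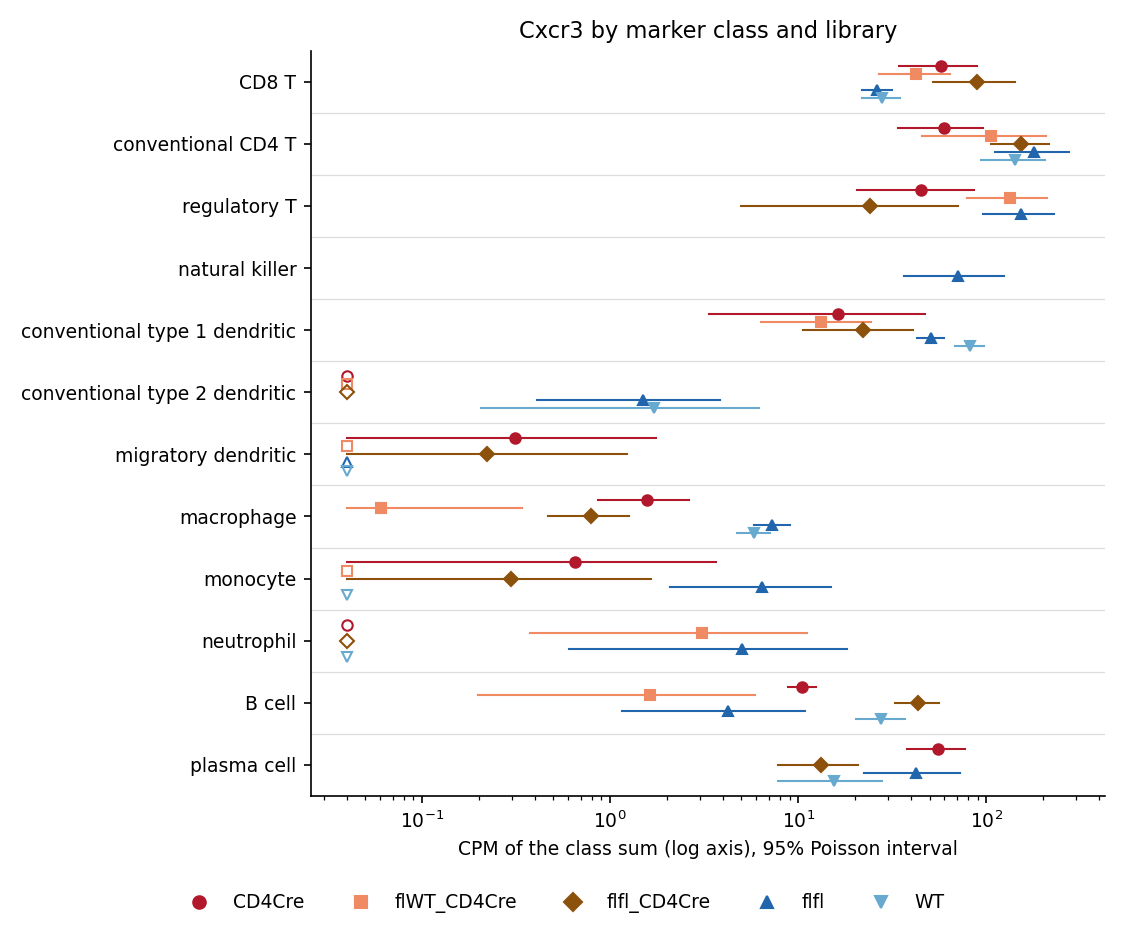
Cxcr3 in each cell class and library, in CPM of the class on a log axis; points are libraries, bars are 95% Poisson intervals (counting error only) and open symbols at the edge stand for 0 UMIs. CD8 T cells have 26.4 to 89.4 CPM and conventional CD4 T cells 59.5 to 180 CPM, and type 2 and migratory dendritic cells stay at or below 1.71 CPM.

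Macrophages had little Cxcr3: 1.57 CPM in CD4Cre, 0.0608 in flWT_CD4Cre, 0.794 in flfl_CD4Cre, 7.29 in flfl and 5.82 in WT. The 2 libraries without Cre are the higher ones. There, T cell receptor complex genes were also found in more macrophages, 41.4% in flfl and 30.7% in WT against 1.51% to 4.82% with Cre. In flfl these genes were found in 35.1% of macrophages with Cxcr3 and 41.9% without, and in WT in 31.4% and 30.6%. Other shares there are to be read beside the macrophage shares with Cxcr3, 7.80% in flfl and 6.46% in WT. Macrophages had a median of 11682 and 11732 UMIs a cell, against 7976 and 6972 in CD8 T cells. Thinned to 2000 UMIs, the shares were 1.69% and 1.65% in macrophages, 5.42% and 5.86% in CD8 T cells and 12.2% and 13.4% in type 1 dendritic cells. Both of the latter classes thus stood above macrophages, and the part of stray RNA in these shares was not tested.

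B lineage cells also had Cxcr3. B cells had 10.5 CPM in CD4Cre, 1.64 in flWT_CD4Cre, 43.3 in flfl_CD4Cre, 4.26 in flfl and 27.8 in WT, and the libraries do not fall by Cre. CD4Cre, with 2303 B cells, had 46.6% of its Cxcr3 UMIs in them. Plasma cells had 55.2 CPM in CD4Cre, 13.2 in flfl_CD4Cre, 42.3 in flfl and 15.6 in WT. Against B cells they did not pass (log2 0.63, SE 0.75, adjusted p = 0.559 by edgeR, with 36.4% of genes called, a contrast added after the values were seen).

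Ordered by the mean over libraries with at least 20 cells, Cxcr3 ran from conventional CD4 T cells (118 ± 51.4 CPM, SD, n = 3) through CD8 T cells (48.7 ± 26.0, n = 5), type 1 dendritic cells (48.7 ± 34.5, n = 3), plasma cells (28.0 ± 23.6, n = 3) and B cells (17.5 ± 17.7, n = 5) to macrophages (3.11 ± 3.24, n = 5). The values of each class overlap those of the next in this order.

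Among CD8 T cells, thinned to 3000 UMIs, Cxcr3 was found less often beside exhaustion and effector transcripts in 4 of 5 libraries each, and single genes were mixed. Beside Pdcd1 its share was higher in 2 of 5 libraries and lower in 3 (5.26% against 12.5% in flfl). Beside Tbx21 it was higher in 3 of 5, on 3 to 52 cells with Tbx21 a library. For cells with at least 2 of the exhaustion genes Pdcd1, Havcr2, Lag3, Tigit, Tox and Entpd1 the share was lower in 4 of 5 libraries (4.75% against 15.2% in flfl and 3.81% against 18.6% in WT), and for cells with at least 4 of 7 effector genes, led by the granzymes, also in 4 of 5 (1.69% against 10.2% in flfl and 1.67% against 10.1% in WT).

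Cells with Ifng, the cytokine that induces the ligands, had Cxcr3 less often in flfl (0.926% against 10.2%) and WT (3.51% against 9.60%), and the share was lower in 4 of 5 libraries. Cxcr6, another chemokine receptor of tissue T cells, went with a lower Cxcr3 share in flfl (5.20% against 14.9%) and WT (5.65% against 16.9%) and a higher one in the 3 Cre libraries. The groups of cells within a library are not replicates, and no test was made.

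**Figure D5:**
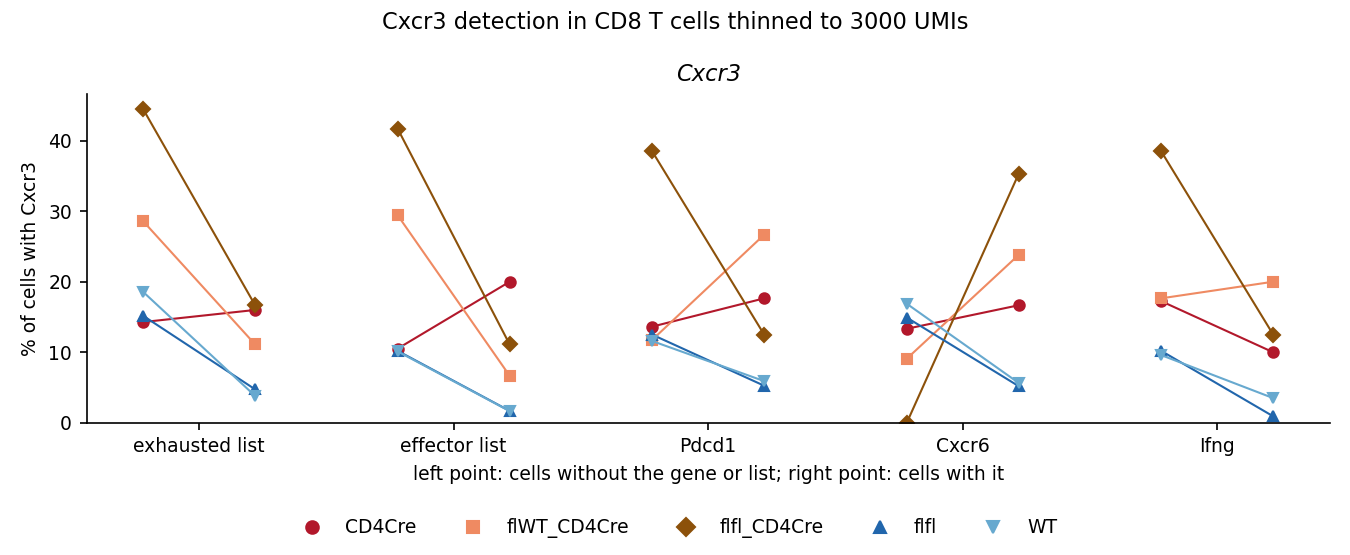
Share of CD8 T cells with Cxcr3 (percent, cells thinned to 3000 UMIs) among cells without (left point) and with (right point) each gene list or gene; each line is a library. The lines of 4 of 5 libraries fall for the exhausted and effector lists, for example from 18.6% to 3.81% for the exhausted list in WT.

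In CD8 against conventional CD4 T cells, where 0.983% of all genes were called, 1 of 17 genes of receptor control passed: Runx3, a transcription factor of cytotoxic cells, was higher in CD8 T cells (373 against 149 CPM). In ligand induction, Ifng was higher (202 against 29.4 CPM) and Jak2, a kinase of the interferon gamma receptor, lower (37.5 against 163 CPM). Ccl5 was the 1 of 21 other chemokine genes that passed, higher in CD8 T cells (5597 against 1442 CPM). Between type 1 dendritic cells and macrophages, where 21.2% of all genes were called, 6 of 19 interferon gamma targets were higher in dendritic cells and 8 lower. Psmb9, a subunit of the immunoproteasome (803 against 190 CPM), Ciita and Tap1 were among the higher, and Nos2, Gbp4 and Gbp7 among the lower. Of 21 other chemokine genes, 2 were higher and 15 lower in the dendritic cells, so Cxcl10 was lower together with most of the list; Ccl12, for example, was at 4.42 against 462 CPM. Dpp4 was the gene of ligand handling that was higher in type 1 dendritic cells (81.4 against 5.97 CPM).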

How the data were processed

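The 12 bulk tables hold raw counts per gene, deposited by the authors; per the submitters' processing notes STAR and HTSeq (of versions that no source used here gives) were run with mm10. All 5 single-cell matrices hold raw UMI counts, deposited by the authors, made with Cell Ranger (3.1.0 per the file headers of 3). Rows that name no gene, left out here, held 42.6% to 44.4% of reads in Control and PDL1_Fc and 87.9% to 88.2% in Ctrl_Fc and PD1_Fc. Reads that did not align were 8.95% to 11.2% and 79.9% to 80.4%.

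Bulk counts were fitted over all 12 libraries with edgeR 4.0.16 in R 4.3.3 (TMM scaling, filter on low counts, robust quasi-likelihood F test, Benjamini-Hochberg adjustment, threshold 0.05). Single cells needed 200 genes and at most 10% mitochondrial UMIs. Classes needed at least 3 markers, with the second-best score at most 70% of the best; no doublet caller was run. Sums of at least 20 cells entered the same edgeR test, with library as covariate. Alternatives used DESeq2 1.42.0, other filters, marker rules and left-out libraries. Intervals are exact Poisson or binomial, at 95%. Likeness between genes is Pearson's r of log2(CPM + 10) over class sums. Scripts were tested on simulated data. No libraries were identical. Replicate numbers did not pair the bulk libraries (correlations of deviations -0.124 to 0.084). Bulk groups follow the titles. Single-cell groups follow the genotype labels, with which the file names of flWT_CD4Cre and WT disagree.

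The 4 members and all lists (ligand induction, interferon gamma targets, receptor control and signalling, ligand handling, other chemokine receptors, other chemokines, cell states and cell markers) were chosen with earlier results of these data known. List genes named are those at 50 CPM or more in a group with the 3 largest changes past the threshold in each direction. A few genes and 1 list are not reported here. Versions were Python 3.11.15, numpy 2.4.6, scipy 1.17.1, pandas 2.3.3 and matplotlib 3.10.9, with GENCODE M21.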

Additional observations from a re-analysis of the deposited data

Results flagged for a closer look

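In 24 groups of libraries (a member gene in a cell class with at least 4 libraries), 4 values stood apart from the rest of their group by Dixon's criterion, where chance gives about 1 in 20. Cxcl10 was at 1708 CPM in neutrophils of flWT_CD4Cre, far from the other libraries, the next of which had 341 CPM. Cxcl10 was at 26.1 CPM in B cells of flfl_CD4Cre, with at most 9.82 CPM elsewhere. In CD8 T cells of flWT_CD4Cre Cxcl10 was at 55.5 CPM, against at most 15.8 CPM in the other libraries, and 1 cell held 86.7% of these UMIs. Cxcr3 was at 6.41 CPM in monocytes of flfl, against at most 0.655 CPM elsewhere, from 5 UMIs in 91 cells.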

How the results depend on the processing

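Over 35 results and 459 alternatives, 406 kept direction and side of the threshold; causes of the others were not tested. The calls of Ctrl_Fc against Control, of Cxcl9 in macrophages against neutrophils and between Cre and no Cre, and of Cxcr3 in type 1 dendritic cells against macrophages and type 2 cells held under each alternative run. Values here are log2 differences. With the treatment field in place of the titles, PDL1_Fc against Control gave -10.63 for Cxcl10 and 4.999 for Cxcr3, and PD1_Fc against Ctrl_Fc gave 8.43, 2.26 for Cxcl9 and -1.49 for Cxcr3, none past the threshold. PD1_Fc against Ctrl_Fc called 7 genes, 18 by DESeq2, 27 with only the 6 libraries compared, 2 without the 4 libraries whose labels disagree, 0 by the treatment field and 0 to 8 with a library left out. The replicate block changed no call (Cxcl10 0.16 in PD1_Fc against Ctrl_Fc and -9.03 in Ctrl_Fc against Control).

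With a stricter marker rule, Cxcl10 was at -2.86 in type 1 dendritic cells against macrophages, -1.82 in migratory against type 2 cells and -0.0694 in neutrophils against monocytes. With a looser rule, Cxcl10 was at -2.36 in type 1 against type 2 cells (now past the threshold), Cxcl9 at -2.27 in neutrophils against monocytes, and Cxcr3 at -0.85 in type 1 cells against CD8 T cells and -0.22 in plasma cells against B cells. A further fit used only flfl, WT and flfl_CD4Cre, the 3 libraries with the highest median UMIs when copied barcodes are kept. With copies left out, flWT_CD4Cre (12953) was deeper than flfl (10859.5) and WT (11210). In this fit Cxcr3 was at 0.74 in natural killer against CD8 T cells and -0.69 in plasma against B cells. Cxcl10 was at 0.25 in macrophages against neutrophils and -1.43 in migratory against type 2 cells. In neutrophils against monocytes Cxcl10 was at -0.54 and Cxcl9 at -1.65. DESeq2 gave -2.47 for Cxcl10 in type 1 against type 2 cells and -0.40 for Cxcr3 in type 1 against CD8 T cells, and its size factors 0.15 for Cxcr3 in natural killer cells. With copied barcodes kept, Cxcl10 was at -2.85 in type 1 against type 2 cells and Cxcl9 at -1.61 in migratory against type 2 cells, both past the threshold. With sums of 10 cells these were -2.91 and -1.65, and Cxcr3 in type 1 against CD8 T cells was -0.0261. Without any shared barcode, Cxcr3 in natural killer cells was 0.17.

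The log2 ratio of flfl_CD4Cre to CD4Cre in macrophages was, for Cxcl9, 0.65 with the stricter rule, 0.12 with the looser, 0.27 at 5% mitochondrial UMIs, 0.0194 without shared barcodes and 0.29 thinned, and for Cxcl10 0.80, -0.0270, 0.32 at 5% and 0.0489 thinned.

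With each library left out in turn, Cxcl10 ran from -1.53 to 1.29 in PD1_Fc against Ctrl_Fc (Cxcl9 from 0.47 to 1.14) and from -0.000227 to 0.0769 in PDL1_Fc against Control. In single cells it ran from -0.93 to 0.35 in macrophages against neutrophils, -2.38 to -1.24 in migratory against type 2 cells, -0.58 to 0.75 in neutrophils against monocytes and 1.28 to 2.75 with Cre. Cxcl9 ran from -3.42 to -1.98 in neutrophils against monocytes. Cxcr3 ran from -0.86 to 0.64 in natural killer against CD8 T cells, -0.61 to 0.97 in type 1 against CD8 T cells, -0.53 to 1.74 in plasma against B cells and -4.33 to -3.12 with Cre.

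Natural killer cells had 1 sum and gave no value under the stricter rule or without flfl. Regulatory T cells had none of 20 cells; with sums of 10 their Cxcr3 was at -0.39 against conventional CD4 T cells and 0.77 against CD8 T cells, neither past the threshold. Without the 4 libraries whose labels disagree, PDL1_Fc had no library, and with 6 libraries alone the filter dropped members. In CD8 against CD4 T cells, simulated 2-fold changes were mostly missed.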

Other observations

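Among B cells, Cxcr3 went with Tbx21, the gene of T-bet, in the libraries with the most Cxcr3-positive B cells. In CD4Cre, 8.86% of 79 Cxcr3-positive B cells had Tbx21, against 1.62% of the Cxcr3-negative. In WT it was 11.1% of 18 against 1.08%, and in flfl_CD4Cre 19.2% of 26 against 1.79%. The Cxcr3-positive cells of these 3 libraries were also deeper, with medians of 7388, 8953 and 9477.5 UMIs against 4755, 6366.5 and 5209, and the part of depth was not tested. In flWT_CD4Cre and flfl, with 2 and 3 Cxcr3-positive B cells, none had Tbx21.

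Over 49 sums of a class in a library and 7258 genes, the genes whose level was most like that of Cxcl10 were interferon-induced antiviral genes: Ifit2 (Pearson's r 0.87), Oas2 (0.87) and Rsad2 (0.86), followed by Slc15a3 and Cmpk2 (0.85 each). For Cxcl9 they were Pik3cb (0.80), Sdc3 (0.76), Mfsd12 (0.76), Adap2 (0.75) and Tbxas1 (0.74). For Cxcr3 they were Agpat3, Ptpn22 and Tnik (0.78 each), Cd28 (0.77) and Sytl3 (0.77). Between members r was 0.55 for Cxcl9 and Cxcl10, -0.25 for Cxcl9 and Cxcr3 and -0.40 for Cxcl10 and Cxcr3. These sums share libraries and depth, so the values are descriptions.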
